A study of Homo sapiens with 6 samples.

Results

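The WNT and beta-catenin genes described here were 10 genes chosen by name: CTNNB1, AXIN1, AXIN2, LEF1, TCF7, TCF7L2, DKK1, RNF43, ZNRF3 and GPC3. All 10 were among the 33007 genes of the deposited expression table, 9 had at least 1 count, and 8 were among the 18390 genes with enough counts to be tested. They were measured by bulk RNA sequencing in LM3 cells, an established human hepatocellular carcinoma (HCC) line that the labels give as wild type liver. The 3 vector control samples were compared with 3 samples carrying a stable knockdown of ZNF706, a C2H2 zinc finger gene, made with a lentiviral pLKO.1 short hairpin RNA and puromycin selection; all cells grew in DMEM with 10% fetal bovine serum. The labels do not say that the 3 samples of a group came from separate cultures, so p-values measure the spread between these samples, which may be technical.

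WNT ligands are secreted lipid-modified proteins that bind Frizzled receptors and the co-receptors LRP5 and LRP6. Without a ligand, a destruction complex built on AXIN, with APC and the kinases GSK3 and CK1, marks beta-catenin for breakdown. With a ligand, beta-catenin accumulates, enters the nucleus and binds TCF/LEF factors at target genes. The pathway is known in liver for setting the zones of metabolism across the lobule, and in HCC for frequent mutation of CTNNB1 and AXIN1. RNA levels do not show the amount or place of beta-catenin protein.

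Libraries held 62684076, 64713764 and 63054445 counts for the controls and 68548419, 65861994 and 69057423 for the knockdown. A single count was thus worth between 0.0143 and 0.0163 CPM, the usual library-size unit, after scaling by the TMM method of edgeR. ZNF706 itself had 3211, 3504 and 3357 counts in the controls and 2350, 2068 and 2298 in the knockdown samples. The groups did not overlap, and ZNF706 fell by 39.9% (log2 fold change −0.73, SE 0.050, adjusted p = 3.7e-05, edgeR quasi-likelihood test with Benjamini-Hochberg adjustment over all tested genes). A gene is called below where this adjusted p was under 0.05.

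Across all tested genes, 1906 were called higher (10.4%) and 2286 lower (12.4%), or 22.8% in either direction. With samples scaled only by their totals, the split turned to 2742 higher and 1518 lower, and limma on log2(FPKM + 0.1) gave 2242 higher and 1362 lower, where FPKM is the fragment count normalised to gene length and library size. Of the 8 tested WNT genes, 1 was called, DKK1, which was lower. That is 12.5% of the 8 tested, beside 22.8% of all genes. Scaling by totals and limma also called CTNNB1, as higher. The groups did not overlap in scaled counts for 4 of the 8 (CTNNB1 and RNF43 higher, ZNRF3 and DKK1 lower), where 39.4% of all tested genes did not overlap. The median log2 fold change of the 8 was −0.017, beside 0.0095 over all tested genes. The study's criteria, an unadjusted p under 0.05 with a log2 change of at least 0.3 in size, were applied to the edgeR fit. DKK1 was again the 1 gene of the 10 that passed, beside 1767 higher and 1081 lower of the 18390 tested genes. The study itself used these criteria with DESeq2.

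On the per-length FPKM scale the 10 genes covered a wide range of levels. CTNNB1 and DKK1 were the most abundant. CTNNB1 had a mean of 22.3 FPKM over the 6 samples, above 89.5% of tested genes, and DKK1 one of 17.4 FPKM. In controls their order was not resolved, with DKK1 at a mean of 22.2 FPKM, CTNNB1 at 21.6 and overlapping ranges, whereas in knockdown samples DKK1 (12.7 FPKM) lay below CTNNB1 (23.1 FPKM). AXIN1 was next at 6.11 FPKM. RNF43 at 2.88 FPKM, ZNRF3 at 2.85 and TCF7L2 at 2.63 had overlapping sample ranges, so their order is not resolved. The same held for GPC3 at 0.403 FPKM and TCF7 at 0.295. AXIN2 was near the floor at 0.03 FPKM and LEF1 had no count.

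**Figure D1:**
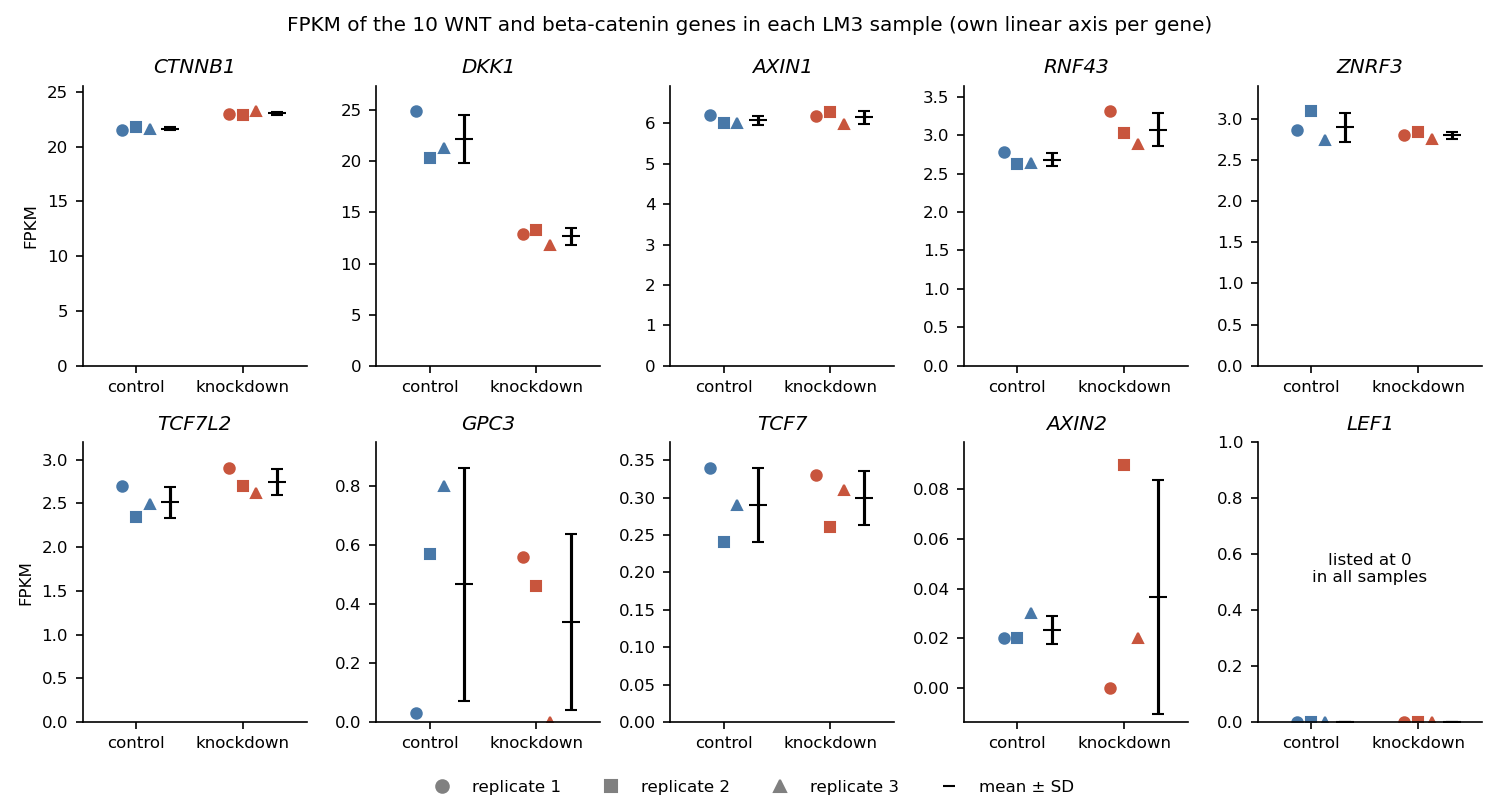
FPKM of each of the 10 genes (linear vertical axis, separate for each gene) in the 3 control (blue) and 3 knockdown (red) samples, with the mean ± SD of each group in black. DKK1 lies between 20.34 and 24.89 in controls and between 11.77 and 13.31 in knockdown samples, and GPC3 has a low sample in each group.

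DKK1 encodes a secreted inhibitor that binds LRP5 and LRP6 and blocks their use by WNT ligands; it is also a known TCF/LEF target gene. It lies at chr10:52314281-52317657 on the plus strand of GRCh38 (ENSG00000107984). It had 3934, 3330 and 3407 counts in the controls and 2252, 2220 and 2057 in the knockdown samples. In FPKM these were 24.89, 20.34 and 21.35 against 12.89, 13.31 and 11.77. All 3 knockdown samples were below all 3 controls, and control 1 was the highest. Scaled counts were 57.2 ± 5.77 CPM in controls and 31.5 ± 1.92 CPM in knockdown samples (SD, n = 3 each). DKK1 fell by 44.8% (log2 fold change −0.86, SE 0.075, 95% interval −1.03 to −0.69, adjusted p = 9.9e-05). It ranked 112 of the 18390 genes by adjusted p, and 79 among genes with a lower fitted level. The call held with each sample left out in turn, where the log2 change lay between −0.92 and −0.78, and in the other 9 alternatives, where it lay between −0.86 and −0.73. The antisense gene PRKG1-AS1 shares 212 exonic bases with DKK1 on the opposite strand but had only 28 to 72 counts a sample.

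The region before the DKK1 start site is shown because DKK1 was the called gene of the 10 and the only one whose promoter window held a searched TCF/LEF motif. Windows of 300 bases (250 before and 50 after the start site, RefSeq, GRCh38.p14) were found for 7 of the 10 genes, 11 windows in all. They were searched on both strands for CTTTGAT and CTTTGAA, which share all letters but the last. The 250 bases before the start, chr10:52314031-52314280 on the plus strand, are printed 5′ to 3′ with the match in capitals.
DKK1 upstream region: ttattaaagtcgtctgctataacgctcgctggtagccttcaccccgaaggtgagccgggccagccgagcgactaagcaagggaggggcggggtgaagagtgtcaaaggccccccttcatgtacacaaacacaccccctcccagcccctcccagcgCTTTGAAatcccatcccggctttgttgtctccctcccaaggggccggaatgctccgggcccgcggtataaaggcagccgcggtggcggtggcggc
The match was CTTTGAA, beginning 95 bases before the start site. Either motif occurred in 2409 of all 35116 windows of this length (6.86%), CTTTGAA in 1555 (4.43%) and CTTTGAT in 919 (2.62%). A match describes letters only, and the counts do not bear on whether TCF/LEF factors bind there. The other secreted inhibitor with a call, SFRP1, which binds WNT ligands, moved the other way. SFRP1 had 2235, 2377 and 2307 counts in controls and 3305, 3368 and 3324 in knockdown samples (log2 fold change 0.38, SE 0.047, adjusted p = 0.00052). The groups were far apart relative to the spread in each. Among the 19 inhibitors listed, 15 were in the table and 7 were tested, and DKK1 and SFRP1 were the 2 called (28.6%, beside 22.8% of all genes). DKK3, a relative of DKK1, had a mean of 0.14 FPKM with 77 to 162 counts a sample. KREMEN1, a co-receptor for DKK proteins, had 877 to 1142 counts and was not called.

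RNF43 and ZNRF3 encode related membrane ubiquitin ligases that remove Frizzled receptors from the cell surface, and both are known as negative feedback regulators of the pathway. RNF43 (chr17:58353676-58417595, ENSG00000108375) had 1252, 1227 and 1204 counts in controls and 1650, 1442 and 1438 in knockdown samples. Its FPKM values were 2.78, 2.63 and 2.64 against 3.31, 3.03 and 2.88. The knockdown samples were all above the controls, with knockdown 1 the highest. The fitted log2 difference of 0.15 (SE 0.076, 95% interval −0.02 to 0.32) was not called (adjusted p = 0.20). RNF43 shares 4326 exonic bases on the same strand with AC004687.2, a gene with 0 to 28 counts, so its counts may be split between the pair. It also shares 143 exonic bases with SUPT4H1, on the same strand, and 1521 with TSPOAP1-AS1, on the other. ZNRF3 (chr22:28883572-29057488, ENSG00000183579) had 1429, 1590 and 1375 counts in controls and 1537, 1488 and 1520 in knockdown samples. Its FPKM values were 2.87, 3.09 and 2.74 against 2.80, 2.84 and 2.76, which overlap, whereas the scaled counts did not. The log2 difference of −0.10 (SE 0.070, 95% interval −0.26 to 0.06) was not called (adjusted p = 0.36). The 2 ligases thus had fitted differences of opposite sign, neither past the threshold, and their difference was not tested.

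AXIN1 and AXIN2 encode the scaffolds of the destruction complex, and AXIN2 is in addition a widely used readout of TCF/LEF activity. AXIN1 (chr16:287440-352723, ENSG00000103126) had 3333, 3336 and 3251 counts in controls and 3669, 3549 and 3548 in knockdown samples. In FPKM these were 6.21, 6.01 and 6.0 against 6.19, 6.27 and 5.98, with full overlap. The log2 difference was −0.03 (SE 0.038, 95% interval −0.12 to 0.05, adjusted p = 0.63) and turned positive when samples were scaled by totals or tested in FPKM. AXIN2 (chr17:65528563-65561648, ENSG00000168646) had 8, 9 and 13 counts in controls and 0, 38 and 10 in knockdown samples. Knockdown 2 was the highest sample and knockdown 1 had no count, which allows up to 0.0428 CPM (3 counts; counting error only). AXIN2 did not pass the count filter. Without the filter, its log2 difference was 0.55 (adjusted p = 0.85), not larger than the spread between samples. AXIN2 shares 1316 exonic bases on the same strand with AC004805.1, a gene not analysed here, so its counts may be incomplete.

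CTNNB1 encodes beta-catenin, the coactivator that the destruction complex controls and a part of cadherin junctions. CTNNB1 (chr3:41194741-41240443, ENSG00000168036) had 18030, 18882 and 18235 counts in controls and 21291, 20240 and 21492 in knockdown samples. Its FPKM values were 21.54, 21.78 and 21.58 against 23.02, 22.93 and 23.23. The groups did not overlap, but they were close together. The fitted log2 difference was 0.04 (SE 0.030, 95% interval −0.02 to 0.11) and was not called (adjusted p = 0.35). CTNNB1 was called higher where the samples were scaled by totals (0.10, adjusted p = 0.037) and in limma on log2(FPKM + 0.1) (0.09, adjusted p = 0.048) or log2(FPKM + 1) (0.09, adjusted p = 0.046); over all alternatives the adjusted p went up to 0.65. Those scalings also moved all genes upward, by a median of 0.054, 0.048 and 0.044 on the log2 scale.

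TCF7, TCF7L2 and LEF1 encode 3 of the DNA-binding partners of beta-catenin. TCF7L2 (chr10:112950247-113167678, ENSG00000148737) was the most abundant of them. It had 1304, 1174 and 1210 counts in controls and 1543, 1370 and 1395 in knockdown samples, or 2.70, 2.35 and 2.49 against 2.91, 2.70 and 2.62 FPKM. The ranges overlapped, and the log2 difference was 0.07 (SE 0.080, 95% interval −0.10 to 0.25, adjusted p = 0.57). TCF7 (chr5:134114681-134151865, ENSG00000081059) had 246, 184 and 218 counts in controls and 267, 201 and 251 in knockdown samples. Its log2 difference was −0.0037 (SE 0.17, 95% interval −0.39 to 0.38, adjusted p = 0.99), an interval that leaves room for changes in either direction. TCF7 shares 210 exonic bases with the opposite-strand gene SKP1, which had 14959 to 17907 counts; the sources used here do not say whether strand was used in counting. LEF1 (chr4:108047545-108168956, ENSG00000138795) had 0 counts in all 6 samples, which allows up to 0.0428 to 0.0489 CPM a sample. LEF1 shares 279 exonic bases with the opposite-strand gene LEF1-AS1, which was not analysed here. The fourth family gene, TCF7L1, had 13 to 54 counts and a mean of 0.0733 FPKM. On the FPKM scale, TCF7L2 had the highest level of the 4 family genes in each sample.

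**Figure D2:**
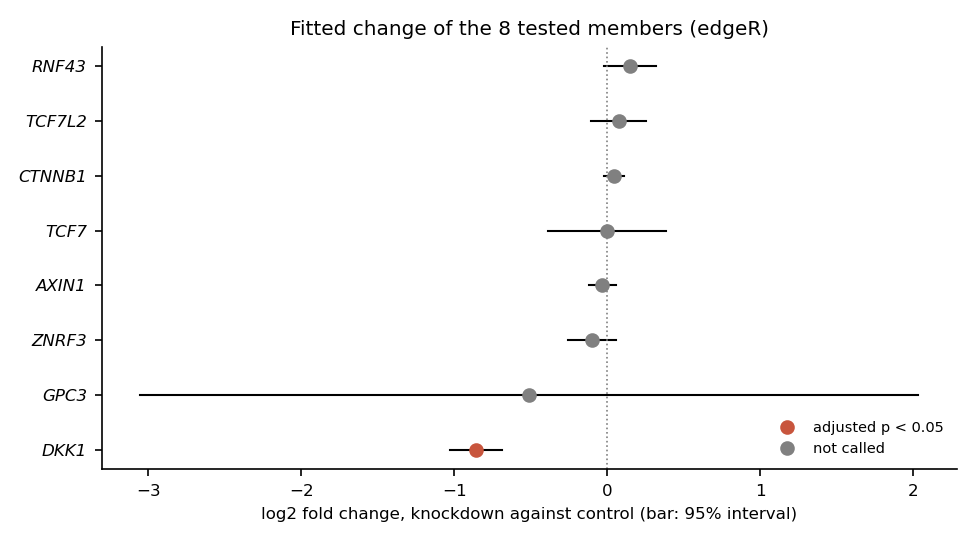
Fitted log2 fold change of the 8 tested genes, knockdown against control (horizontal axis), with 95% intervals as bars and the called gene in red. DKK1 at −0.86 is the 1 called gene, and the GPC3 interval runs from −3.05 to 2.03.

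GPC3 encodes a heparan sulfate proteoglycan of the cell surface, a known HCC antigen that can bind WNT ligands. GPC3 (chrX:133535745-133985594, ENSG00000147257) had 6, 122 and 166 counts in controls and 127, 101 and 0 in knockdown samples. Control 1 and knockdown 3 were low and the other 4 samples were of similar level, so the spread within a group was larger than the difference between groups. The log2 difference of −0.51 (SE 1.14, 95% interval −3.05 to 2.03) was not called (adjusted p = 0.80). With those 2 samples left out, a setting chosen after their values were seen, it was −0.48 (adjusted p = 0.29), and over all genes 1189 were called higher and 1631 lower. DKK1 was still called without them (log2 fold change −0.73, adjusted p = 0.0010).

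Of the 10 hepatocyte markers, 5 had the same low samples as GPC3 and the others did not. ALB, which encodes albumin, had 189, 899 and 882 counts in controls and 587, 635 and 138 in knockdown samples. AFP, which encodes alpha-fetoprotein, had 71, 230 and 252 against 189, 156 and 31. TF, which encodes transferrin, had 37, 361 and 375 against 234, 213 and 24. FGB and TTR followed the same order, giving 5 of the 10 hepatocyte markers. Of all tested genes, 681 (3.7%) had control 1 and knockdown 3 below the other 4 samples, and 45 (0.245%) with a gap of at least 2-fold. The part of these samples in the GPC3 values was not tested.

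**Figure D3:**
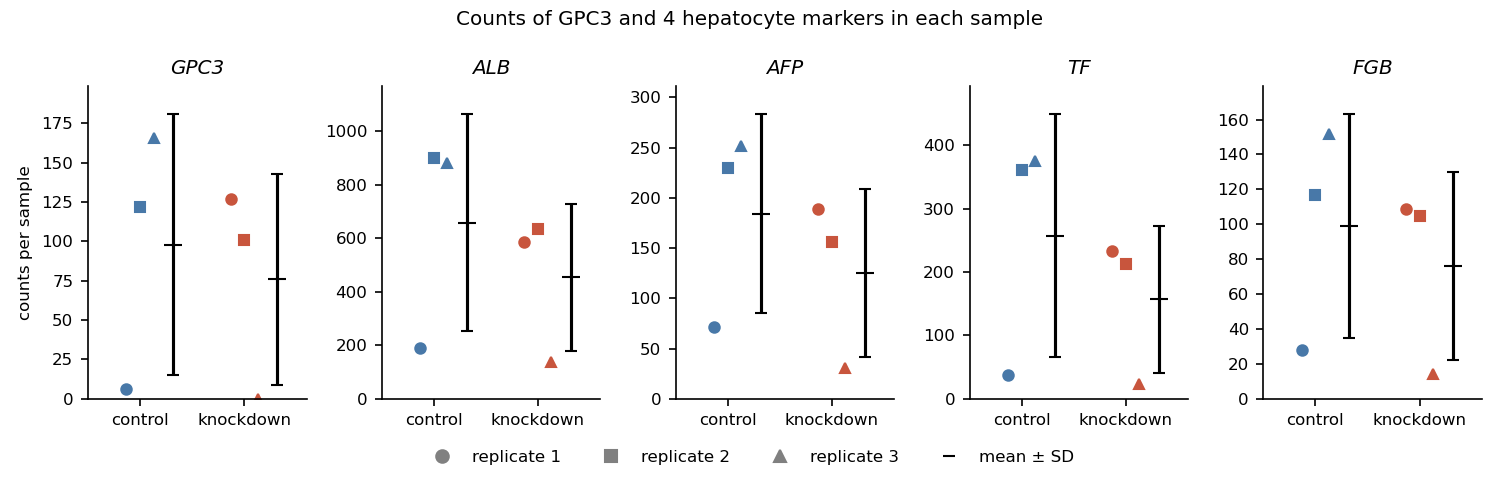
Counts (linear vertical axis, separate for each gene) of GPC3 and the hepatocyte markers ALB, AFP, TF and FGB in the 3 control (blue) and 3 knockdown (red) samples, with the mean ± SD of each group. In all 5 genes control 1 (blue circle) and knockdown 3 (red triangle) are the lowest samples of their groups. The markers drawn are among those with this order. APOA1, SERPINA1 and HNF4A, which are not drawn, had other low samples.

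The liver label was checked against marker genes. In bulk RNA, fewer cells of a type and less RNA per cell cannot be told apart. The 10 hepatocyte markers summed to 3.7, 8.07 and 9.5 FPKM in controls and 3.85, 4.1 and 2.78 in knockdown samples, with ALB the most abundant at a mean of 2.17 FPKM. The defining factor HNF4A (0.0967 FPKM) was near 0. Of the 9 hepatocyte markers tested, APOB (log2 fold change −0.98, adjusted p = 0.021) and SERPINA1 (−1.47, adjusted p = 0.0034) were called lower and none higher. That is 22.2%, near the 22.8% of all tested genes. The 5 epithelial markers summed to 451.63 to 479.97 FPKM, with none called. KRT18 at 265.8 FPKM and KRT8 at 196.3 FPKM made up nearly all of that sum. The other epithelial markers were low, with KRT19 at 0.663 FPKM, CDH1 at 0.375 and EPCAM at 0.178. The 6 fibroblast or stellate markers summed to 7.9 to 10.05 FPKM, with COL1A1 the most abundant at 7.73 FPKM. Of 5 tested, COL1A1 and PDGFRB were called higher (40%, beside 22.8% of all genes). The other tested markers, COL3A1 (log2 difference −2.04), LUM (−1.26) and DCN (−0.039), were not called, and the list median was −0.039. COL1A2 did not pass the count filter. The 3 endothelial markers summed to 1.43 to 2.06 FPKM, led by CDH5. CDH5 was called lower, 1 of 2 tested, and VWF had 0 to 20 counts. The 3 leukocyte markers summed to between 10.67 and 11.24 FPKM in controls and between 16.71 and 18.11 in knockdown samples. CD68, a lysosomal protein gene also expressed outside leukocytes, made up most of that sum (13.8 FPKM). It was called higher, 1 of 2 tested, with a log2 change of 0.64. PTPRC, the defining leukocyte gene, had 8, 8 and 0 counts in controls and none in knockdown samples.

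The other genes of the pathway were taken from 12 lists by role, 178 genes in all, of which 167 were in the table and 133 were tested. Of these, 16 were called higher and 22 lower (28.6%), and the median log2 change was −0.018. The balance turned over with the scaling, to 24 higher and 13 lower by total scaling and 19 higher and 13 lower in limma on FPKM. Without knockdown 2, it was 12 higher and 14 lower. Without the 10 genes above, 16 of 125 were higher and 21 lower. WNT11 and LGR5, both called higher, and FRZB passed the count filter through 1 group alone, so the first 2 calls follow in part from the filter; without the 3 genes, 14 of 130 were higher and 22 lower. These shares stand beside 10.4% higher and 12.4% lower among all tested genes.

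**Figure D4:**
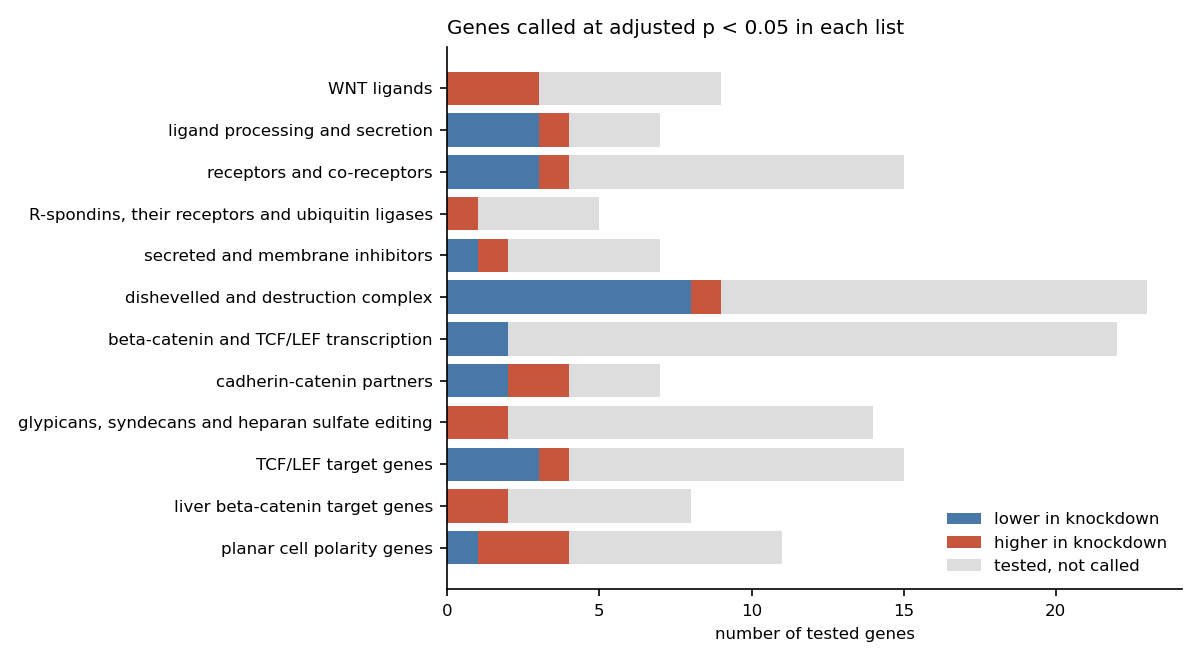
Number of tested genes (horizontal axis) in each of the 12 lists that were called lower (blue), called higher (red) or not called (grey) in knockdown samples. The dishevelled and destruction complex list has 8 lower and 1 higher of 23, and the WNT ligand list 3 higher and none lower of 9, of which WNT11 passed the count filter through the knockdown group alone.

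Among the WNT ligands, 3 of 9 tested were called higher and none lower, or 2 of 8 without WNT11, with median log2 changes of 0.32 and 0.28. Among all genes 10.4% were higher. The count went up to 5 by total scaling and down to 1 without control 1 and knockdown 3. WNT9A had 329, 386 and 402 counts in controls and 867, 928 and 820 in knockdown samples, a rise of 111% (log2 fold change 1.08, SE 0.115, adjusted p = 0.00026). The groups were far apart, and the call held in every alternative. WNT10B had the highest ligand mean over the 6 samples at 7.79 FPKM. In controls it was at 6.81 FPKM and WNT5A at 6.73, with overlapping ranges, so their order there is not resolved. WNT10B had 1191, 1364 and 1288 counts against 1799, 1651 and 1853 (log2 fold change 0.32, adjusted p = 0.012). It was not called without control 1 and knockdown 3 (adjusted p = 0.086). WNT11 had 0, 6 and 0 counts against 24, 30 and 23, and passed the count filter through the knockdown samples alone. Its adjusted p of 0.039 became 0.14 without the filter, DESeq2 gave it no adjusted p, and it was called with 1 sample left out in 1 of 6 cases. WNT6 (adjusted p = 0.054), WNT7B (0.071), WNT3 (0.80) and WNT5A (0.68) were not called.

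Among 7 genes of ligand processing and secretion, 3 were called lower and 1 higher (57.1%, beside 22.8% of all genes), against 1 lower and none higher without knockdown 2. PORCN, the acyltransferase that adds the lipid to WNT proteins, rose (log2 fold change 0.48, adjusted p = 0.014). WLS, the carrier that takes them to the cell surface, fell (−0.20, adjusted p = 0.011). The cargo receptors TMED5 (−0.22, adjusted p = 0.0013) and TMED2 (−0.12, adjusted p = 0.026), the most abundant gene of the list at 133 FPKM, also fell. TMED2 was not called by total scaling, without the count filter or in FPKM.

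Of 15 receptors and co-receptors tested, 1 was called higher and 3 lower (26.7%, near the 22.8% of all genes), against 2 and 1 by total scaling and 1 and 1 in limma on FPKM. FZD2, a Frizzled receptor, had 491, 554 and 489 counts in controls and 849, 824 and 835 in knockdown samples (log2 fold change 0.56, SE 0.091, adjusted p = 0.0021). The knockdown samples were all higher and close together. ROR2, a receptor tyrosine kinase for WNT5A, had 1924, 1912 and 1964 counts against 1749, 1499 and 1617 (−0.40, SE 0.066, adjusted p = 0.0023). RYK, another WNT-binding receptor, fell by 0.16 (adjusted p = 0.016) and LRP6 by 0.13 (adjusted p = 0.048) on the log2 scale; neither was called by total scaling or in FPKM, nor LRP6 in DESeq2 or without the count filter. FZD6, the most abundant receptor at 16.4 FPKM, and LRP5 (adjusted p = 0.092) were not called. Of 5 tested genes for R-spondins, their receptors and the ubiquitin ligases, LGR5, a stem cell marker, was called higher from 0, 5 and 8 against 35, 40 and 24 counts (adjusted p = 0.040). It too passed the count filter through the knockdown samples alone. It was not called without the filter (adjusted p = 0.13) or with the replicate block (0.064), had no adjusted p in DESeq2, and was called with 1 sample left out in 1 of 6 cases. Without it, none of the other 4 genes of the list was called. LGR4, a related receptor and the most abundant gene of that list at 13.3 FPKM, was not called.

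The dishevelled and destruction complex list had 8 of 23 tested genes lower and 1 higher (39.1%, beside 22.8% of all genes), and the median log2 change was −0.076. CSNK1D, a CK1 kinase, fell by 0.24 on the log2 scale (SE 0.039, adjusted p = 0.0022). DVL3, a dishevelled adaptor, fell by 0.22 (SE 0.036, adjusted p = 0.0025). TNKS2, a tankyrase that marks AXIN for breakdown, fell by 0.21 (SE 0.037, adjusted p = 0.0028). FBXW11, a subunit of the ubiquitin ligase that acts on beta-catenin, fell by 0.20 (SE 0.035, adjusted p = 0.0029). The other lower genes were CSNK1G1, GSK3A, TNKS and CSNK1G3. RNF146, the ubiquitin ligase that acts on AXIN after tankyrase, was the higher gene, with 668, 756 and 633 counts against 1114, 1086 and 1042 (log2 fold change 0.51, adjusted p = 0.0034); it was named after its values were seen. APC (adjusted p = 0.47) and GSK3B (0.48) were not called. CSNK1G2 was the most abundant gene of the list at 26.1 FPKM and was not called. Counts for the list ranged from 6 to 9 lower over the alternatives, with 1 higher in each.

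Of the 22 tested genes of beta-catenin and TCF/LEF transcription, 2 were called lower and none higher (9.09%, beside 22.8% of all genes). These were the corepressor TLE2 (log2 fold change −0.33, adjusted p = 0.0076) and TBL1X, a corepressor exchange factor (−0.18, adjusted p = 0.016). TBL1X was not called by total scaling or in FPKM, where 3 and 2 genes of the list were called higher. TLE5 was the most abundant at 51.3 FPKM and was not called.

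Of 7 cadherin-catenin partners, 2 rose and 2 fell (57.1%, beside 22.8% of all genes). CTNND1, which encodes p120-catenin, a stabiliser of cadherins, had 14262, 13705 and 13042 counts in controls and 10765, 11656 and 10554 in knockdown samples (log2 fold change −0.46, SE 0.056, adjusted p = 0.00051). JUP, which encodes plakoglobin, the closest relative of beta-catenin, rose by 0.27 (SE 0.037, adjusted p = 0.00089). CDH2, which encodes N-cadherin, rose by 0.49 (SE 0.086, adjusted p = 0.0031). CTNNA1, which encodes alpha-catenin and led the list at 78.1 FPKM, fell by 0.14 (adjusted p = 0.0060), and was not called by total scaling or in FPKM. CTNND1, JUP and CDH2 were called in every alternative, unlike CTNNB1.

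Among 14 tested genes for glypicans, syndecans and heparan sulfate editing, 2 were called higher and none lower (14.3%, beside 22.8% of all genes). SDC1, a syndecan, rose by 0.37 (SE 0.041, adjusted p = 0.00029). NDST1, a heparan sulfate sulfotransferase, rose by 0.18 (adjusted p = 0.026), and was not called without the count filter (adjusted p = 0.084). SDC4 was the most abundant gene of the list at 48.1 FPKM and was not called. GPC1 was the most abundant glypican at 9.94 FPKM, with 4628 to 5124 counts. The other relatives of GPC3 were low, with GPC5 at 110 to 186 counts, GPC2 at 28 to 68, GPC6 at 0 to 45 and GPC4 at 0 to 18.

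Of 15 tested TCF/LEF target genes, 3 were called lower and 1 higher (26.7%, near the 22.8% of all genes), and the median log2 change was −0.099. The lower genes were DKK1, CD44, an adhesion receptor (−0.17, adjusted p = 0.0041), and MYC, a growth-control transcription factor (−0.15, adjusted p = 0.023). MYC, the most abundant at 53.0 FPKM, was not called by total scaling, without the count filter or in FPKM. The higher gene was LGR5, on the few counts given above; without it, 3 of 14 were lower and none higher. CCND1, which encodes cyclin D1, was not called (adjusted p = 0.25). SP5 had 6 to 25 counts a sample and was not called. Of 8 tested liver targets, 2 were called higher (25%, near the 22.8% of all genes), and the median log2 change was −0.15. OAT, a mitochondrial aminotransferase, rose (0.14, adjusted p = 0.030). LGR5 was the other call, which leaves 1 of 7 without it, with a median of −0.36. TBX3, the most abundant at 29.3 FPKM, was not called. GLUL, which encodes glutamine synthetase, was not called either (795 to 1028 counts in controls and 668 to 836 in knockdown samples, adjusted p = 0.076). The OAT call was lost in 5 of the 6 cases with 1 sample left out, and also without the count filter.

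Of 11 tested planar cell polarity genes, which act in a beta-catenin-independent branch, 3 rose and 1 fell (36.4%, beside 22.8% of all genes), and the median log2 change was 0.19. CELSR1 (0.24, adjusted p = 0.0041) and CELSR2 (0.29, adjusted p = 0.0089), both polarity cadherins, and SCRIB, a polarity scaffold (0.19, adjusted p = 0.013), were higher. INVS, which encodes inversin, was lower (−0.26, adjusted p = 0.026), a call lost whenever 1 sample was left out. INVS was also not called by total scaling or in FPKM.

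Some of these calls were lost when 1 sample was left out, which also lowered the number of calls over all genes. With 1 sample left out, the log2 change of PORCN stayed between 0.43 and 0.52 and that of WLS between −0.24 and −0.18. Without knockdown 2, PORCN (adjusted p = 0.058) and WLS (0.055) were not called. Without control 2, SCRIB (0.059) and RYK (0.064) were not called, and RYK was also lost without knockdown 3. Calls lost with 1 or more other samples left out, given by their highest adjusted p, were LRP6 (0.17), TMED2 (0.10), NDST1 (0.11), OAT (0.099), MYC (0.093), INVS (0.069) and TBL1X (0.063). The same held for LGR5 (0.15) and WNT11 (0.14). Without both control 1 and knockdown 3, PORCN, CELSR2 (0.061), WNT10B, RYK, LRP6, OAT, INVS, LGR5 and WNT11 were not called. The calls of DKK1, WNT9A, FZD2, ROR2, SFRP1, CSNK1D, DVL3, TNKS2, FBXW11, CTNND1, JUP, CDH2, SDC1, TLE2, TMED5, CD44 and CELSR1 held in every alternative run.

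**Figure D5:**
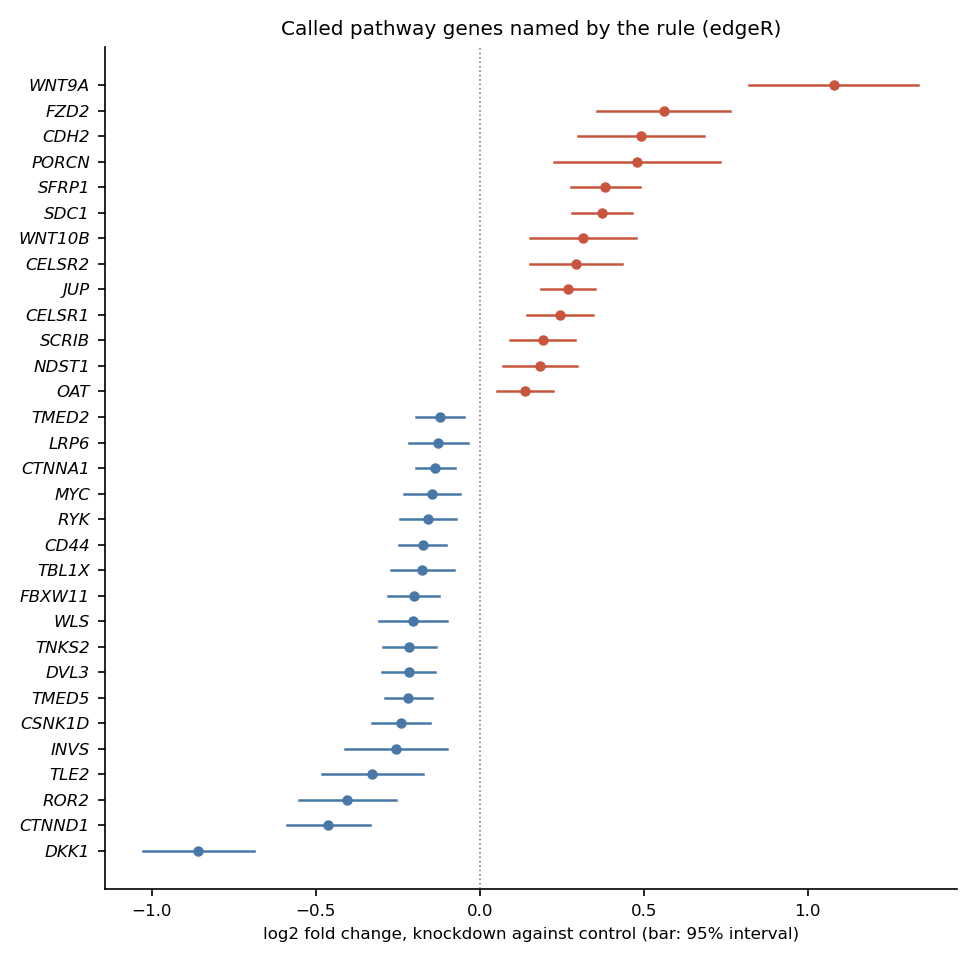
Fitted log2 fold change, knockdown against control (horizontal axis), of the called pathway genes named by a fixed rule, with 95% intervals as bars, higher genes in red and lower genes in blue. WNT9A at 1.08 and DKK1 at −0.86 lie farthest from 0; WNT11 and LGR5, with few counts, are not drawn.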

How the data were processed

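RNA was extracted from 3 control and 3 knockdown LM3 samples with Trizol and sequenced on an Illumina NovaSeq instrument. Per the study's methods reads were aligned with HISAT2; the submitters' processing notes name cutadapt 1.9, FastQC and GRCh38. The counting program, its use of strand and the annotation are not given in the sources used here. The authors deposited whole-number counts and FPKM for each sample, with annotation columns. Pathway labels in that table were used once, to list KEGG Wnt genes.

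Counts were tested with edgeR 4.0.16 in R 4.3.3 (filterByExpr, TMM scaling, glmQLFit and glmQLFTest, Benjamini-Hochberg adjustment over 18390 genes). SE is the log2 fold change over the square root of F. FPKM were used for levels and in limma 3.58.1 as an alternative (mean of at least 0.1, pseudocounts 0.1 and 1). Other alternatives were DESeq2 1.42.0, its size factors, total scaling, tests of all genes, a floor of 50 on the mean count, a replicate block and leaving out samples. Replicates were distinct, with a chi-square per gene of 12.8 to 22.2 within groups and 45.9 to 53.9 between them.

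The members and gene lists were chosen with earlier results of these data known. Named genes were ZNF706, the 10 members and their relatives, and from each list the gene with the highest mean FPKM and up to 4 called genes with the smallest adjusted p; any gene named outside it was picked with its values in view. Overlaps of genes were read from GENCODE 29 (GRCh38). Some genes are not reported here.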

Additional observations from a re-analysis of the deposited data

How the results depend on the processing

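DKK1 and ZNF706 kept their direction and call in every alternative run. Scaling by totals, limma on log2(FPKM + 0.1) and limma on log2(FPKM + 1) each called 2 of the 10 genes in place of 1, CTNNB1 being added. With 1 sample left out, between 2648 and 3424 genes were called in place of 4192, the lowest without knockdown replicate 2. The TCF7 log2 difference changed sign in DESeq2 (0.0015), by total scaling (0.050), with a mean count of at least 50 (0.0011), with the replicate block (0.00029), in limma with either pseudocount (0.040 and 0.011) and without control 1 and knockdown 3 (0.079); leaving out 1 sample gave −0.12 to 0.10. AXIN1 turned positive by total scaling (0.023) and in limma (0.017 and 0.015), and GPC3 ranged from −1.07 to 0.13 with 1 sample left out. None of these values was called. Total scaling and the limma fits moved all genes by a median of 0.054, 0.048 and 0.044, close to or above the AXIN1 and TCF7 changes under them; for the other sign changes the cause was not tested. Samples of the 2 groups with the same number correlated at 0.054, −0.0040 and 0.084 in their deviations from group means. Pairs with unlike numbers correlated at −0.080 to 0.029. Controls 1 and 3 correlated best with their own number, and control 2 did not. Whether samples with the same number were handled together was not tested. A fit with the replicate block called 4361 genes, 1967 higher and 2394 lower. AXIN2, LEF1, WNT11 and LGR5 were limited by few or no counts.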

Other observations

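Genes that the table's own annotation places in the KEGG Wnt signaling pathway were counted after the data had been examined. Of 147 such genes, 116 were tested, of which 13 were called higher and 21 lower (29.3%), beside 10.4% higher, 12.4% lower and 22.8% in all among all tested genes. Their median log2 change was −0.0073. Of these, 62 were in none of the lists above; 52 were tested, 6 higher and 12 lower (34.6%). Values are given for 3 of these genes, chosen after their values were seen. JUN, a subunit of AP-1, had 2362, 2408 and 2180 counts in controls and 4039, 4028 and 4273 in knockdown samples (log2 fold change 0.68, SE 0.047, adjusted p = 3.7e-05, edgeR). FOSL1, another AP-1 subunit, had 3120, 3287 and 3697 counts against 1985, 1917 and 2186 (−0.88, SE 0.074, adjusted p = 8.1e-05). The groups did not overlap for either subunit, and the pair moved in opposite directions. RAC1, a small GTPase, had a mean of 95.2 FPKM in controls and 84.3 FPKM with knockdown (−0.23, adjusted p = 0.0020).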
